A study of Mus musculus with 5 samples.

Results

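The smooth muscle contractile genes are 10 genes of the contractile apparatus and its control: Acta2, Tagln, Myh11, Cnn1, Myocd, Des, Lmod1, Smtn, Actg2 and Tpm2. Their members were taken as every probe set, the group of short probes that reads 1 transcript, whose only gene symbol in the platform annotation was one of these names. This gave 18 of the 45101 probe sets on the array, and each of the 10 genes had at least 1. RNA was measured on 5 one-colour oligonucleotide arrays of cultured cells from the aorta of mice on the C57BL/6J background. By title, 2 samples were TNF-LTBR and 3 were control, all at 24 h. All 5 were labelled as endothelial cells and grown in medium with serum, heparin and endothelial growth supplement, whereas the title of the series speaks of smooth muscle cells. TNF is an inflammatory cytokine and LTBR the lymphotoxin beta receptor. No agonist or dose behind the name TNF-LTBR is stated in the labels, whose treatment text, identical for all 5 samples, names only PBS. Separate animals or cultures behind the arrays are not stated either, so every p-value rests on a spread between arrays that may be technical.

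Smooth muscle cells shorten when myosin filaments pull on actin filaments that carry tropomyosin, calponin and other binding proteins. Many genes of this apparatus are driven by serum response factor, which binds a short DNA element named the CArG box and is assisted by myocardin and the related factors Mrtfa and Mrtfb. In the vessel wall these proteins mark differentiated smooth muscle, but cultured fibroblasts and endothelial cells that lose their identity can also make some of them, among them Acta2 and Tagln.

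Values are the deposited intensities on a linear scale, and differences are TNF-LTBR minus control on the log2(intensity + 16) scale, which understates differences of dim genes. Array medians lay between 109.9 and 120.7. A gene was tested if its highest-mean probe set was among the brightest 60% of genes, which corresponds to an intensity of 128. Over all other genes tested, arrays of unlike title resembled each other most. The root mean square difference of log2 values was 0.35 between TNF-LTBR array 2 and control array 3 and 0.35 between TNF-LTBR array 1 and control array 2. It was 0.72 between both TNF-LTBR arrays and 0.53 to 0.75 between the controls. The results below are therefore also given without single arrays where that moves them. The endothelial label was checked against 19 markers, of which 7 passed the brightness filter. Vwf, von Willebrand factor, lay between 2.3 and 7.2 on the 5 arrays, Pecam1 between 52.6 and 198.9, Cdh5 (VE-cadherin) between 28.7 and 235.6, Cldn5 between 17.1 and 172.9, and Tek between 46.9 and 118.8, all under the filter by their means. Kdr, a VEGF receptor, passed it, with 255.1 to 364.2. So did Eng (endoglin), with 1550.2 to 1858.3, and Plvap, with 401.3 to 759.3, both chosen after their values were seen. Of 16 fibroblast and pericyte markers 14 passed, and Col1a2, a collagen chain and the brightest of them, lay between 17596.6 and 20691.4.

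Acta2 encodes smooth muscle alpha-actin, the main actin of the contractile filaments of vessels. Its highest-mean probe set read 4156.4 and 2066.4 on TNF-LTBR arrays 1 and 2, against 7581.6, 8169.4 and 2082.0 on control arrays 1 to 3. The groups overlapped, because control array 3 lay beside TNF-LTBR array 2, while control arrays 1 and 2 were the highest. The log2 mean was 11.53 ± 0.71 in TNF-LTBR (SD, n = 2) and 12.31 ± 1.10 in control (SD, n = 3). The difference was -0.78, with a 95% interval of -2.53 to 0.97, and did not pass (limma, adjusted p 0.999). It was -0.28 without TNF-LTBR array 2 and -1.28 without TNF-LTBR array 1. It was -0.49 without control array 1, -0.44 without control array 2 and -1.42 without control array 3. In such bulk samples fewer cells that make a transcript and less transcript per cell cannot be told apart. The other 2 probe sets of Acta2 were dim, at 19.5 to 40.4 in TNF-LTBR and 12.1 to 62.4 in control, and differed by -0.25 and -0.07. Each was highest on control array 2, as was the main probe set, but on control array 1 they read 38.9 and 16.3, under TNF-LTBR array 1 at 40.4 and 21.9, unlike the main probe set. The main probe set carries the suffix _s_at, which marks possibly shared sequence. Actg2 encodes the gamma-actin of enteric smooth muscle. It read 104.5 and 45.6 in TNF-LTBR, against 48.8, 154.3 and 24.4 in control, and stayed under the filter.

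**Figure D1:**
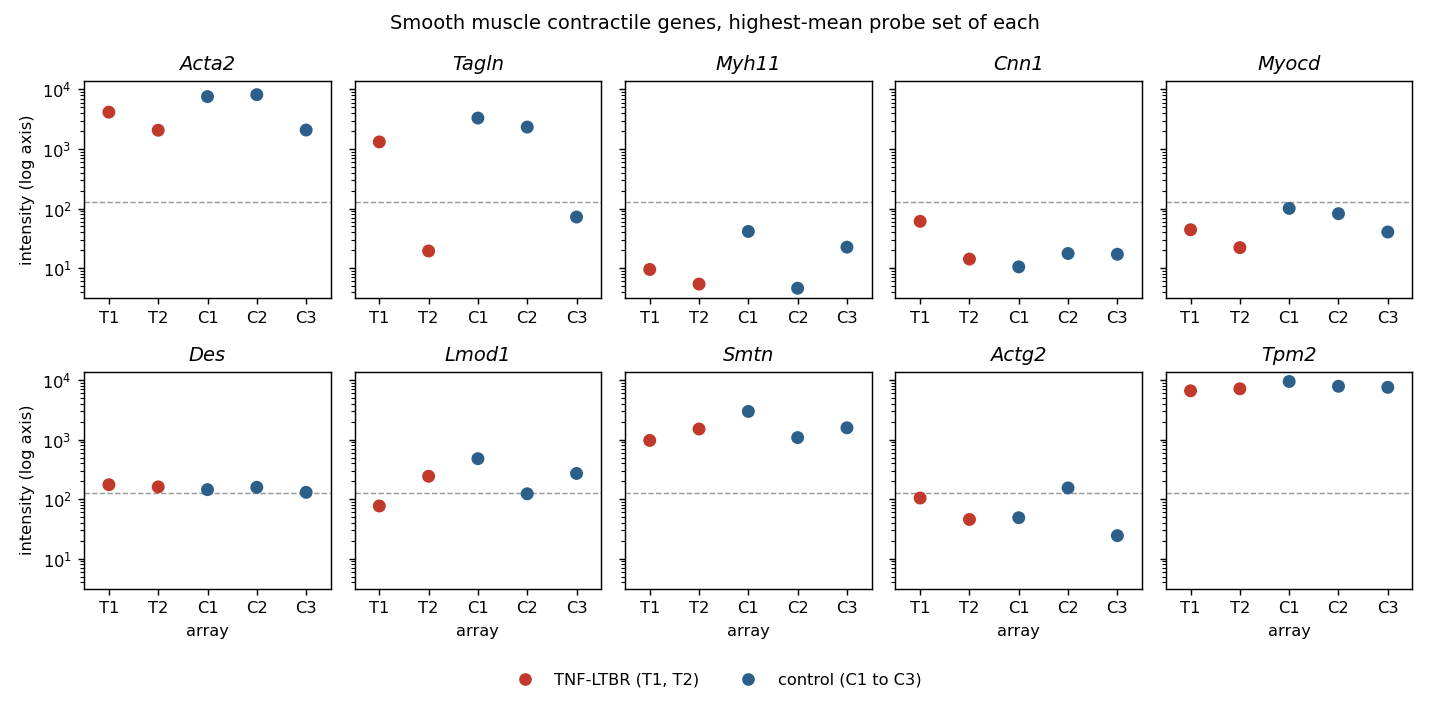
Intensity on a logarithmic axis of the highest-mean probe set of each of the 10 genes, 1 point for each array: T1 and T2 are the TNF-LTBR arrays and C1 to C3 the control arrays. The dashed line is the brightness filter at 128; Tagln spans 19.4 to 3307.9 within the plot, while both Tpm2 groups stay between 6584.4 and 9448.7.

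Tagln encodes transgelin (SM22-alpha), an actin-binding protein of smooth muscle, and had by far the widest spread of the members. It read 1315.1 and 19.4 on TNF-LTBR arrays 1 and 2, against 3307.9, 2335.1 and 72.1 on control arrays 1 to 3. One array of each group was therefore low and the rest were high. The highest reading was 67.8 times the lowest within TNF-LTBR and 45.9 times the lowest within control. Over the 5 arrays the range of Tagln was 6.55 on the log2 scale, and only 6 of the 10916 genes tested, Tagln included, had a range as large, against a median range of 0.56. Its mean was 7.76 ± 3.70 in TNF-LTBR (SD, n = 2) and 9.79 ± 2.89 in control (SD, n = 3). The difference of -2.02 was smaller than either SD (limma, adjusted p 0.999, 95% interval -7.59 to 3.55). Without TNF-LTBR array 2 the difference turned to 0.59, and without TNF-LTBR array 1 it was -4.64. Without control array 3 it was -3.69, and without control array 1 it was -1.07. It was -1.32 without control array 2.

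Myl9, the regulatory light chain of smooth muscle myosin and no member of the 10, had the same order of arrays. It read 649.3 and 118.9 in TNF-LTBR, against 2224.6, 1647.9 and 262.1 in control, with a difference of -1.76 (limma, adjusted p 0.999). Both for Myl9 and for Tagln the 2 lowest arrays were TNF-LTBR 2 and control 3, and control 1 was the highest. The same pair of arrays was lowest for 2 of the 6 tested members, Acta2 and Tagln, and for 23.1% of all genes tested. It was also lowest for Actg2 and Myocd, which were under the filter. Cell type markers shared this order in part. The summed intensity of 9 macrophage markers was 8933.8 and 2686.5 in TNF-LTBR, against 3882.7, 7584.3 and 2195.7 in control. For the 19 endothelial markers it was 4450.1 and 3767.0 in TNF-LTBR, against 4723.2, 4949.8 and 3551.3 in control. For the 16 fibroblast and pericyte markers it was 83377.5 and 87156.1 in TNF-LTBR, against 48713.9, 83534.2 and 79193.5 in control, lowest on control array 1. Single markers differed in their order. Of the macrophage markers with the highest means, Lyz2 (lysozyme) read 3933.6 and 66.5 in TNF-LTBR, against 1088.5, 3409.2 and 186.3 in control, and Csf1r, a growth factor receptor, 718.8 and 285.3, against 547.1, 757.3 and 295.7. Both were lowest on TNF-LTBR array 2 and control array 3. Cd53, a membrane protein of leukocytes, was not, with 2533.8 and 1659.1 in TNF-LTBR, against 1110.3, 2126.1 and 1104.0 in control. Dcn (decorin, made by fibroblasts) was highest on those arrays, with 7815.4 and 13473.9 in TNF-LTBR, against 1204.0, 3506.4 and 12584.9 in control. So was Lum (lumican), chosen after its values were seen, with 1103.8 and 12933.2 in TNF-LTBR, against 1145.4, 818.0 and 12967.3 in control. Thy1, of the same list and also chosen after its values were seen, was lowest on those arrays. It read 8871.2 and 127.9 in TNF-LTBR, against 2583.1, 12215.1 and 154.6 in control. Mfap5, Postn and Fbln1 of this list were also lowest there, while Col1a1, Col1a2, Abcc9 and Kcnj8 were highest there. None of these markers was listed at 0, and their part in the readings of Acta2 and Tagln was not tested.

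Promoters of 6 of the 10 members were matched by symbol in a RefSeq table for build GRCm38.p6, which holds 250 bases before and 50 bases after the annotated start. Tagln, Myh11, Myocd and Actg2 had no entry. Acta2 and Myl9 are shown because TNF-LTBR array 2 and control array 3 were the lowest arrays for both, and Tpm2 because its main probe set varied little between arrays. CArG boxes are in capitals, searched on both strands with 1 of the core letters allowed to be G or C, and the sequences run 5′ to 3′ along the gene. The Acta2 window is chr19:34255324-34255623 on the minus strand, that of Myl9 chr2:156775214-156775513 on the plus strand, and that of Tpm2 chr4:43523505-43523804 on the minus strand.
Acta2: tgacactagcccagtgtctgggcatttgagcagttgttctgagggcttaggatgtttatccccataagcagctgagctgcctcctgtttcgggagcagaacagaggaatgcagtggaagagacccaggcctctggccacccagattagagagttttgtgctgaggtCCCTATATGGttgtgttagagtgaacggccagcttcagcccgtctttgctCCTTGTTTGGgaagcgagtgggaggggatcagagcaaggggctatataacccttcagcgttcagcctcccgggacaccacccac
Myl9: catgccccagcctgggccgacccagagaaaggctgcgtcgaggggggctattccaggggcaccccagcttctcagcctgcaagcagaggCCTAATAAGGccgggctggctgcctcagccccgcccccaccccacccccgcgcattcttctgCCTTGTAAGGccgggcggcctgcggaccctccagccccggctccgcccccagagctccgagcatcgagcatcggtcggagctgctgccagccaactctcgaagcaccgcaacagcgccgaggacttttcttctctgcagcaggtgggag
Tpm2: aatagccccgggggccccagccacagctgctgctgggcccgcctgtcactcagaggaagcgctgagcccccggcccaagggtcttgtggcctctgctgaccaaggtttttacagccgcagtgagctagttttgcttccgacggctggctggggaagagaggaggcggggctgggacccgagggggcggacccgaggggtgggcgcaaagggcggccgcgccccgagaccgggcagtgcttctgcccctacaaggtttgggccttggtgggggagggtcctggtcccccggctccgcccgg
In the Acta2 window the boxes were CCCTATATGG and CCTTGTTTGG, with first bases at positions -84 and -34 from the annotated start. In the Myl9 window they were CCTAATAAGG and CCTTGTAAGG, at -161 and -99. The windows of Tpm2, Cnn1, Des, Lmod1 and Smtn held none, so 1 of 6 member windows had a match, against 9.98% of the 32851 windows in the table. Windows of further genes outside the 10 were scanned as well. That of Srf held 2 boxes and that of Vcl 1, and their main probe sets were lowest on both TNF-LTBR arrays. The windows of Cald1, Mylk and Tpm1 held none, and the main Cald1 probe set was lowest on TNF-LTBR array 2 and control array 3. A link between boxes and array readings was not tested. A match is a description of letters in this window and not of binding.

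Myh11 encodes the smooth muscle myosin heavy chain, the most restricted marker of the lineage, and Cnn1 encodes calponin 1, which binds actin and slows myosin. Both stayed under the filter on all arrays. The brighter Myh11 probe set read 9.5 and 5.4 in TNF-LTBR, against 41.3, 4.6 and 22.5 in control, and the other 13.2 and 4.7, against 9.1, 7.9 and 8.2. Cnn1 read 61.0 and 14.2 in TNF-LTBR, against 10.5, 17.6 and 17.1 in control, so that only TNF-LTBR array 1 stood above the rest. These readings are so close to the added 16 that their differences have little meaning.

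Smtn encodes smoothelin, a cytoskeletal protein of contractile smooth muscle, and Lmod1 encodes leiomodin 1, which nucleates actin filaments. Smtn read 967.7 and 1505.9 in TNF-LTBR, against 2969.4, 1079.6 and 1577.0 in control. Lmod1 read 76.8 and 242.2 in TNF-LTBR, against 478.0, 123.0 and 269.9 in control. In both genes control array 1 was the highest, TNF-LTBR array 1 the lowest and control array 2 the next lowest, an order unlike that of Acta2 and Tagln. The Smtn means were 10.26 ± 0.45 in TNF-LTBR and 10.76 ± 0.73 in control, and those of Lmod1 were 7.27 ± 1.04 in TNF-LTBR and 8.08 ± 0.92 in control (SD, n = 2 and 3). The differences of -0.50 for Smtn and -0.80 for Lmod1 did not pass (limma, adjusted p 0.999 each). Their 95% intervals were -1.68 to 0.67 for Smtn and -2.54 to 0.94 for Lmod1. Smtn was at -0.11 without control array 1 and -0.19 without TNF-LTBR array 1, and Lmod1 at -0.36 and -0.06 in the same fits. Without TNF-LTBR array 2 they were at -0.82 for Smtn and -1.54 for Lmod1, and without control array 2 at -0.83 and -1.28.

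Tpm2 encodes beta-tropomyosin, which lies along the actin filament, and was the most even of the bright members. Its highest-mean probe set read 6584.4 and 7127.5 in TNF-LTBR, against 9448.7, 7846.2 and 7543.6 in control. Both TNF-LTBR arrays lay under all 3 controls. The means were 12.75 ± 0.08 in TNF-LTBR and 13.01 ± 0.17 in control (SD, n = 2 and 3), a difference of -0.27 that did not pass (limma, adjusted p 0.999, 95% interval -0.61 to 0.08). It was -0.17 without control array 1. A further probe set had the same order of groups, with 3779.5 and 4492.5 in TNF-LTBR, against 6575.0, 5244.7 and 4658.2 in control, and differed by -0.40. The other 2 overlapped. The probe set with the suffix _x_at, which marks possibly shared sequence, read 559.3 and 119.6 in TNF-LTBR, against 208.0, 654.3 and 166.0 in control. The dimmest read 178.2 and 157.1 in TNF-LTBR, against 182.7, 195.5 and 148.9 in control, a difference of -0.06.

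Des encodes desmin, the intermediate filament protein of muscle, and was the 1 tested member that was higher in TNF-LTBR. Its highest-mean probe set read 174.6 and 160.6 in TNF-LTBR, against 144.4, 158.1 and 130.1 in control, without overlap but with a narrow gap. The means were 7.52 ± 0.08 in TNF-LTBR and 7.32 ± 0.13 in control (SD, n = 2 and 3), a difference of 0.20 (limma, adjusted p 0.999, 95% interval -0.34 to 0.73). The second Des probe set differed in the same direction, by 0.61 with overlap, but did not follow the main one over the arrays. It read 214.3 and 50.7 in TNF-LTBR, against 206.8, 33.9 and 31.9 in control, so that TNF-LTBR array 1 and control array 1 were high and the other 3 arrays low.

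**Figure D2:**
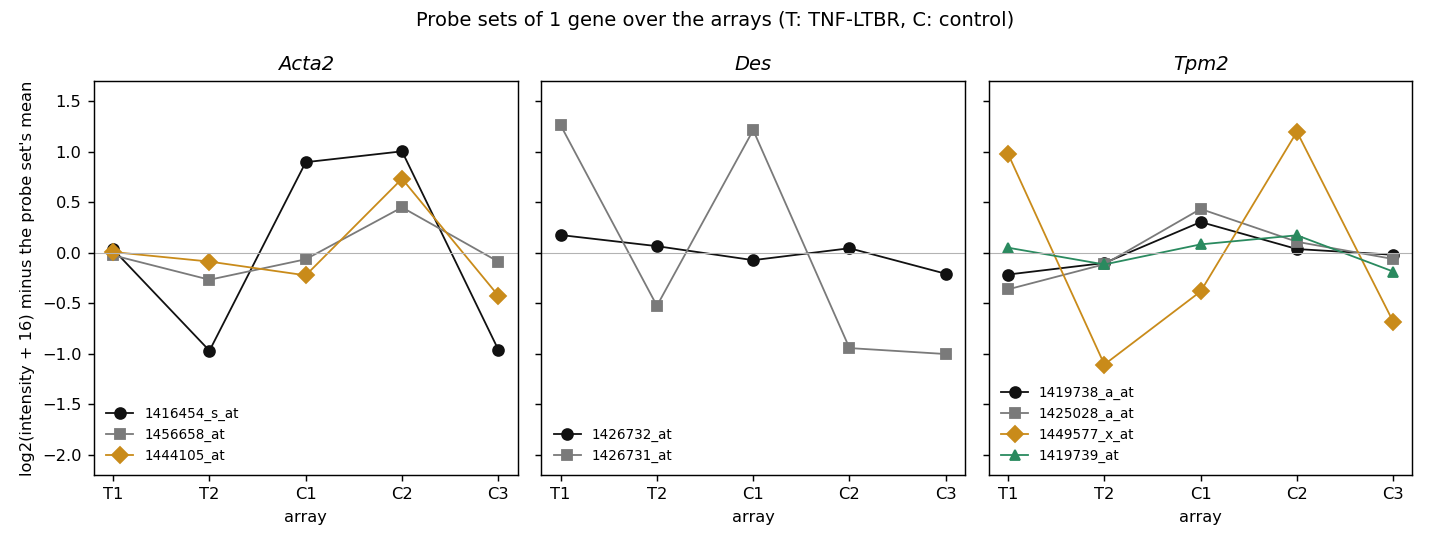
Log2(intensity + 16) of every probe set of Acta2, Des and Tpm2 on the 5 arrays, each less its own mean over the arrays, with T for TNF-LTBR and C for control. Lines join the readings of 1 probe set and carry no order of arrays. The 2 Des probe sets follow the arrays differently from each other. Of Tpm2, the 2 brightest probe sets are highest on C1, and the _x_at and the dimmest probe set on C2.

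Myocd encodes myocardin, the partner of serum response factor that switches on this set of genes. Its brighter probe set read 44.1 and 22.1 in TNF-LTBR, against 100.6, 82.1 and 40.4 in control, under the filter, and the groups overlapped at control array 3. Its other probe set read 19.6 and 6.2 in TNF-LTBR, against 10.5, 18.7 and 9.2 in control. The differences were -0.85 and -0.02. Srf, serum response factor itself, read 457.0 and 368.0 in TNF-LTBR, against 649.0, 491.2 and 534.2 in control, without overlap and with a difference of -0.42 (limma, adjusted p 0.999). Its other probe set overlapped and differed by 0.06. The coactivators Mrtfa and Mrtfb differed by -0.22 and -0.15 and overlapped. Klf4, a repressor of contractile genes in smooth muscle, read 5162.9 and 5806.2 in TNF-LTBR, against 5335.4, 4698.6 and 4132.1 in control, a difference of 0.22 with overlap.

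Of the 10 members, 6 passed the brightness filter and 4 (Myh11, Cnn1, Myocd and Actg2) did not. Of the 6, 0 passed in limma with Benjamini-Hochberg adjustment over all 10916 genes tested, where 0% of genes passed. At an unadjusted p under 0.05 it was 0 of 6 members, against 1.76% of genes, and the smallest unadjusted limma p was 0.109, for Tpm2. Both TNF-LTBR arrays lay under all controls for 1 of the 6 (Tpm2), against 6.34% of genes tested, and above all controls for 1 (Des), against 6.94%. Over all 18 member probe sets, tested or not, the groups did not overlap for 2 that were lower in TNF-LTBR (both of Tpm2), against 6.84% of all probe sets, and for 1 that was higher (Des), against 8.8%. The fit of every probe set called 0 of the 18, and 0% of all 45101. The difference was negative for 5 of the 6, against 50.7% of all genes tested, but the members were chosen with earlier results of these data known. The median of the 6 differences was -0.64, against a median of -0.00 over all genes tested. The median of the 6 was -0.20 without TNF-LTBR array 1, -0.30 without TNF-LTBR array 2 and -0.27 without control array 1. Without TNF-LTBR array 2, 4 of the 6 differences were negative, against 49.8% of all genes tested. With both control array 3 and TNF-LTBR array 2 left out, a choice made after the data were seen, the median was -0.90. With 2 arrays against 3, the smallest two-sided p of an exact permutation test is 0.1.

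**Figure D3:**
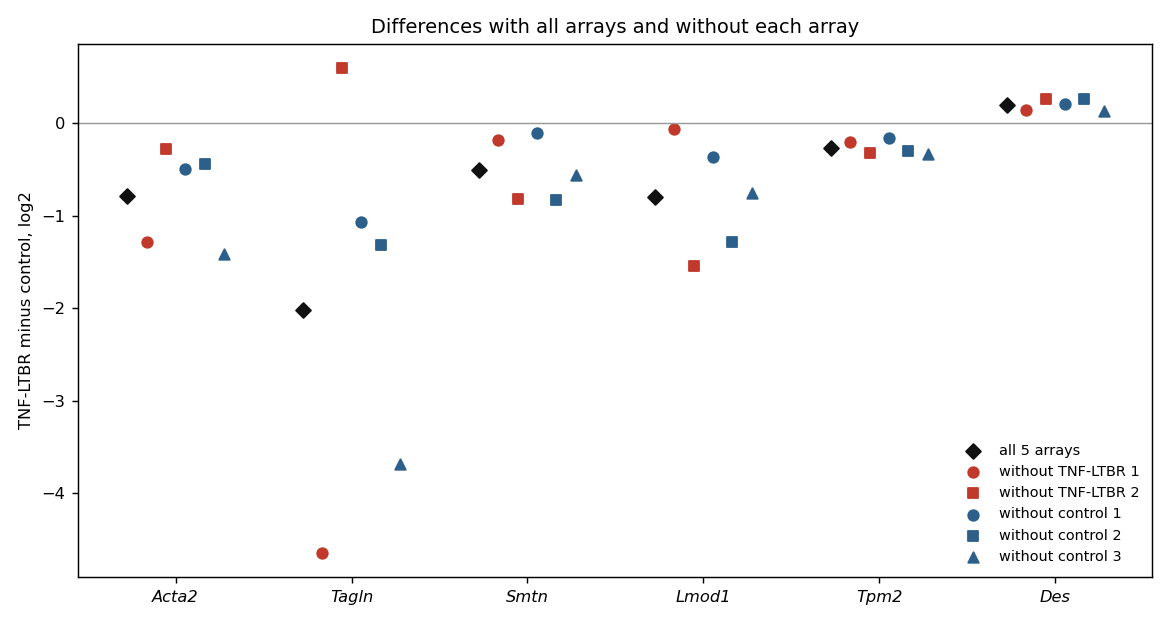
Difference between TNF-LTBR and control on the log2(intensity + 16) scale for the 6 tested members, with all 5 arrays (black diamond) and without each array in turn (red for a TNF-LTBR array left out, blue for a control array). Tagln moves between -4.64 and 0.59, while Acta2, Smtn, Lmod1, Tpm2 and Des stay on their side of 0. Lmod1 comes to -0.06 without TNF-LTBR array 1.

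Of 38 other genes of the contractile apparatus and its attachment to the membrane, 36 had a probe set and 31 passed the filter. This list, like the members and the other lists, was chosen with earlier results of these data known. The shares over all genes beside its counts are therefore no test of the list. The difference was negative for 27 and positive for 4, against 50.7% negative over all genes tested, with a median of -0.24, and limma called 0 of them higher and 0 lower. For 8 of the 31 both TNF-LTBR arrays lay under all controls, against 6.34% of genes tested, and for 1 above them, against 6.94%. An unadjusted limma p under 0.05 was found for 4 of the 31, against 1.76% of genes tested. Without TNF-LTBR array 1, 20 of the 31 differences were negative, against 49.4% of all genes, and without control array 3 it was 23, against 48.7%. The number of genes with every TNF-LTBR array under every control can only stay or rise with fewer arrays to compare. It was 12 without TNF-LTBR array 1, where 2241 of the 10916 genes tested met it, and 17 without TNF-LTBR array 2, where 2940 did. It was 8 without control array 1, where 1123 did, and 10 without control array 2, where 1429 did. Without control array 3 it was 13, where 1484 did, and with all 5 arrays 692 did.

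The largest of the non-overlapping differences were in Fhl1, a LIM-domain protein of muscle, and Ldb3, a Z-disc protein. Fhl1 read 5155.4 and 6618.9 in TNF-LTBR, against 12602.7, 8409.0 and 10194.8 in control, a difference of -0.81 (limma, unadjusted p 0.0114, adjusted p 0.999), and its other probe set overlapped and differed by -0.27. Ldb3 read 129.8 and 180.0 in TNF-LTBR, against 303.4, 201.8 and 286.7 in control, a difference of -0.71, but its other 2 probe sets differed by -0.04 and 0.01. Vcl encodes vinculin, which ties actin to adhesions. It read 7103.5 and 8303.2 in TNF-LTBR, against 12562.6, 10623.0 and 9647.1 in control, a difference of -0.50 (limma, unadjusted p 0.0207, adjusted p 0.999), and its other probe set overlapped and differed by -0.39. Myh10, a non-muscle myosin heavy chain, differed by -0.45 and Filip1l by -0.34, both without overlap, but the other Myh10 probe set overlapped and differed by 0.25. Synpo2, an actin-bundling protein of muscle, was the 1 gene of the list above all controls. It read 337.4 and 354.4 in TNF-LTBR, against 311.6, 320.3 and 200.3 in control, a difference of 0.33. Its other probe sets differed by 0.41 and 0.74 without overlap, and by 0.74 with overlap.

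Mylk, the kinase that activates smooth muscle myosin, read 774.9 and 763.0 in TNF-LTBR, against 3725.1, 736.7 and 645.8 in control, a difference of -0.65. Control array 1 was the highest on all 3 of its probe sets, and on the main one the other 4 arrays lay close together. Tpm1, alpha-tropomyosin, read 6363.8 and 5763.5 in TNF-LTBR, against 4630.6, 5869.8 and 4075.3 in control, a difference of 0.33 that overlapped, and a second bright probe set differed by 0.44 without overlap. Cald1, caldesmon, read 14896.4 and 11224.0 in TNF-LTBR, against 13899.9, 15215.8 and 11695.4 in control, a difference of -0.06. None of these 3 passed in limma (adjusted p 0.999 each).

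Among 23 listed regulators of the contractile programme, 21 had a probe set and 19 passed the filter. The difference was negative for 14 and positive for 5, against 50.7% negative over all genes tested. The median was -0.22, and 0 passed in limma in either direction. At an unadjusted limma p under 0.05 it was 0 of 19, against 1.76% of genes tested. The groups did not overlap for 2 that were lower in TNF-LTBR, Srf and Elk1, and for 2 that were higher, Prrx1 and Foxo4, against 6.34% lower and 6.94% higher over all genes tested. Elk1, an Ets factor that competes with myocardin for serum response factor, differed by -0.22. Prrx1, a mesenchymal homeobox factor, read 5475.7 and 5139.1 in TNF-LTBR, against 3310.7, 4803.7 and 4885.4 in control, a difference of 0.31. Without TNF-LTBR array 1 the median of the 19 was -0.03 and 10 of the differences were negative, against 49.4% of all genes tested. For the cell type markers that passed the filter the median was -0.09 over 7 endothelial genes and -0.02 over 14 fibroblast and pericyte genes. Neither kept its sign when 1 array was left out: the endothelial median ranged from -0.23 to 0.17 and the fibroblast and pericyte median from -0.12 to 0.34. Of 13 striated muscle markers 1 passed the filter, Ckm. Its main probe set read 179.0 and 175.0 in TNF-LTBR, against 233.7, 236.6 and 186.1 in control. The other Ckm probe set overlapped and differed by 0.93, in the opposite direction.

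**Figure D4:**
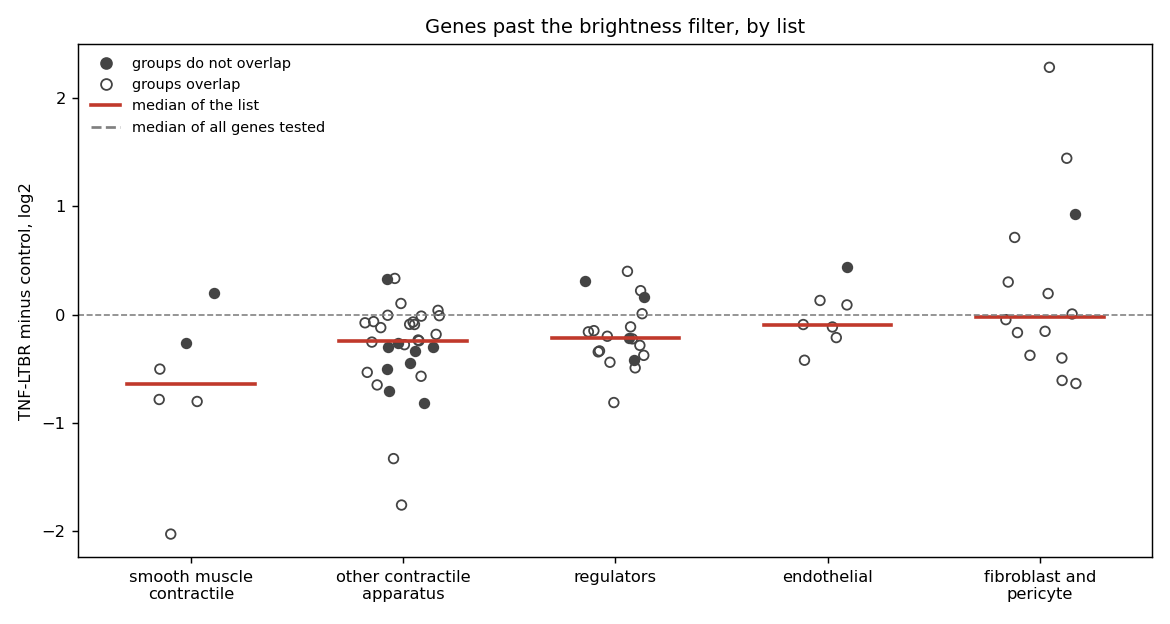
Difference between TNF-LTBR and control on the log2(intensity + 16) scale for genes past the brightness filter, by list; filled points are genes whose groups do not overlap, red lines are list medians and the dashed line is the median of all genes tested. The medians are -0.64 for the 6 smooth muscle contractile genes, -0.24 for the 31 other contractile genes and -0.22 for the 19 regulators. They are -0.09 for the 7 endothelial genes and -0.02 for the 14 fibroblast and pericyte genes. These last 2 change sign when 1 array is left out. All lists were chosen with earlier results of these data known.

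The array profile of Acta2 was also set against that of every other tested gene with at least the median range, as the root mean square difference of log2 values over the 5 arrays after each gene was centred on its own mean. The nearest were Pla2g7 at 0.17, Cdr2 at 0.18, Lefty1 at 0.19, Smarca1 at 0.21 and Prkg1 at 0.23, against a median of 0.95. The other tested members lay further from Acta2, with Tpm2 at 0.77, Des at 0.84, Smtn at 0.96, Lmod1 at 1.24 and Tagln at 1.86. Myl9 lay at 0.73. Prkg1, the cGMP-dependent protein kinase, read 534.4 and 216.0 in TNF-LTBR, against 1073.9, 857.7 and 324.8 in control. The measure is not scaled for range, so it is small only for genes that share both the order and the size of the Acta2 readings.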

How the data were processed

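The authors deposited linear intensities, 1 for each probe set and array, made with GCOS 1.4 per the submitters' processing notes. How probes were summarised and scaled, and the genome build, was not stated. The trimmed mean of the middle 96% of probe sets was 499 to 500 on each array. Groups came from the sample titles. Probe sets were named from the platform annotation where it gave 1 symbol (34958 probe sets), and all 18 member probe sets matched RefSeq by Entrez ID. For each of 18194 genes the brightest probe set on average was used, and the brightest 60% (10916 genes) were tested on log2(intensity + 16) with limma 3.58.1 under R 4.3.3 (linear model, trended eBayes, two-sided test, Benjamini-Hochberg over all genes tested, threshold 0.05, 3 residual degrees of freedom). The procedure was tested on simulated data. The number of arrays limits the precision. Members and gene lists were chosen with earlier results of these data known. Named were all members, fixed genes of each list, up to 6 non-overlapping genes with the largest difference for the 2 contractile lists, and the 5 genes nearest to Acta2. Of the endothelial list 6 were fixed, and markers of other lists were those with the highest means. Lyz2 is one of these. Alternatives were other pseudocounts, filters, normalizations, probe set choices, priors, a replicate block and leaving out arrays.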

Additional observations from a re-analysis of the deposited data

How the results depend on the processing

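Under 15 other settings, and 1 added after seeing the data that left out control 3 and TNF-LTBR 2 together, limma called 0 members and 0 genes in every fit. The lowest adjusted p of a member was 0.940, with both arrays left out. The median of the tested members was -0.90 to -0.20 over all 16 alternatives, and -0.66 to -0.20 when 1 array was left out. The direction of Acta2, Smtn, Lmod1, Tpm2 and Des was kept in each fit that tested them. Tagln ranged from -4.64 to 0.59 when 1 array was left out and turned its direction without TNF-LTBR replicate 2. It was -2.33 with pseudocount 1 and -1.61 with pseudocount 64. Without probe sets that carry the suffix _x_at, _s_at, _a_at or _f_at, the Acta2 probe sets left were under the filter and no Smtn probe set was left. Tpm2 was then read from its dimmest probe set and was at -0.06. The stricter filter left out Lmod1 and Des. With the replicate number as a block the median was -0.66, Acta2 was at -1.42 and Tagln at -3.69, with 0 calls. Control 3 has no partner of its number, so these are the values without it. The numbers were not taken to pair the arrays. Across genes, which are not independent replicates, deviations from the group means correlated at 0.13 for TNF-LTBR 1 with control 1. The value was -0.80 for TNF-LTBR 2 with control 2 and 0.81 for TNF-LTBR 2 with control 3. With 2 TNF-LTBR arrays their deviations mirror each other, so TNF-LTBR 1 with control 2 gave 0.80. These values are therefore not separate evidence. For dim members the added 16 and the unstated background limit what the readings can show.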
